A study of Mus musculus with 6 samples.

Results

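Slc6a11, Slc6a12 and Slc6a13 are genes of GABA and betaine transporters, each read on these arrays from 1 row of the table that named no other gene. They were 3 of 19938 genes so measured. They were chosen by the measured difference between mutant and wild-type brains on these same arrays. Their differences between genotypes are thus given as a description, and calls given for them do not count as tests.

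The RNA was from brains of E16.5 mouse embryos, taken whole from the olfactory bulb to the brain stem. The 3 Tdp2Δ1-3 brains carried a deletion in Tdp2, the gene of the enzyme that releases trapped topoisomerase II protein from DNA ends. The 3 wild-type brains were the controls, and no treatment was given to either genotype. Each brain was read on 1 Affymetrix Mouse Gene 1.0 ST array. The sources used here do not give strain or sex, nor whether the deletion was in all cells. The labels call the brains biological replicates and the series text speaks of 3 independent pairs, without saying which arrays form a pair or what a pair shares.

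GABA, the main inhibitory transmitter of the brain, is cleared from the extracellular space by sodium- and chloride-coupled carriers of the Slc6 family. The product of Slc6a11, known as GAT3 in rat and human, sits mainly in astrocytes and takes up GABA around synapses. That of Slc6a13, GAT2, is best known from the leptomeninges and from liver and kidney. The product of Slc6a12, BGT1, also carries betaine, which kidney cells store as an osmolyte, and in brain it has been found in the meninges. In whole-brain RNA, fewer cells of a type and less RNA per cell cannot be told apart.

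The RefSeq table places all 3 genes on chromosome 6, with Slc6a13 and Slc6a12 directly next to each other. The start-site windows of the genes are shown as a description, and their part in the difference between genotypes was not tested. Each runs from 250 bases before to 50 bases after a RefSeq start (GRCm38.p6, plus strand). Capitals mark the GC box, GGGCGG on either strand, a motif bound by Sp family factors.
Slc6a11 (chr6:114130991-114131290): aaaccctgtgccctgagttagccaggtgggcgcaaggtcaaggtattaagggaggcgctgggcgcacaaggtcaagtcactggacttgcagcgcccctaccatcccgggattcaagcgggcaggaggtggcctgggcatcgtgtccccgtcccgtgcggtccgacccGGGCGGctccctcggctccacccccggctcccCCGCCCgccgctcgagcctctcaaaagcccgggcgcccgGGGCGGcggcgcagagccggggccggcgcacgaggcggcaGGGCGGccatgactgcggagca
Slc6a13, first of 3 windows (chr6:121300038-121300337): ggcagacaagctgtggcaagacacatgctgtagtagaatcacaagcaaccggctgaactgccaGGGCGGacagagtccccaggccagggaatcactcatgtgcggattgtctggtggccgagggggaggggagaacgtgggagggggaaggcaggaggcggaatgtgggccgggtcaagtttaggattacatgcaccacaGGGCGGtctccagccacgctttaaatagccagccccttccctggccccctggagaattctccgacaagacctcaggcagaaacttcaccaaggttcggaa
Slc6a12, first of 5 windows (chr6:121342324-121342623): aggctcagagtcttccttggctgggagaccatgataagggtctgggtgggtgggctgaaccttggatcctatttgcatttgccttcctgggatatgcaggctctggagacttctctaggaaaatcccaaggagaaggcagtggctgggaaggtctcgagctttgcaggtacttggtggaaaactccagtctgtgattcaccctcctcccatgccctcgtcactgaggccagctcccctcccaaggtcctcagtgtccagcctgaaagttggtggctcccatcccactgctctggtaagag

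The windows differed in base composition. That of Slc6a11 was 72.3% G or C and held 32 CpG dinucleotides, and 93.5% of the 32851 windows in the RefSeq table had a lower GC share. The first Slc6a13 window was 59.0% G or C with 11 CpG, and the other 2 were at 52.3% with 7 CpG and 48.7% with 2 CpG. The 5 Slc6a12 windows held between 55.7% and 57.7% G or C and 2 to 5 CpG, beside medians of 52.7% and 7 over all windows. The GC box occurred 4 times in the Slc6a11 window and 2 times in the first Slc6a13 window, and in none of the 5 Slc6a12 windows. At least 1 GC box was found in 35.7% of all windows. A TATA box (TATAAA) was in none of the 9 windows of the 3 genes and in 13.6% of all windows. The palindromic nuclear factor I site was also in none of the 9, and in 0.0365% of all windows. A CCAAT box (CCAAT) lay only in the other 2 Slc6a13 windows, among these 9, and in 37.4% of all windows. The E-box (CANNTG), left in lower case above, was in 8 of the 9 and in 72.3% of all windows. All motifs were sought on both strands, and these are matches of letters with no measurement of binding.

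The deposited values are log2 values in which each row was centred on its median over the 6 arrays. Differences between brains are kept, but levels are not, so a gene's abundance cannot be compared with another's and the tissue cannot be checked by whether its markers are expressed. In a centred row whose groups do not overlap and whose mutants are lower, the highest mutant and the lowest wild-type values mirror each other around 0. Tdp2 itself was at -1.05, -0.90 and -0.94 in the mutant brains and 0.90, 1.10 and 1.34 in the wild-type brains, 4.21-fold lower (limma adjusted p = 0.00035). Whether its probes lie in the deleted part is not given in the labels. Over the 967 rows called lower in the mutants, mutant replicate 1 was the mutant array nearest to the wild types in 67.2%, and wild-type replicate 3 was the wild-type array nearest to the mutants in 59.2%. The call used throughout is a limma p adjusted over 23410 rows under 0.05, and with 3 arrays per genotype the precision of every difference is low. Where list genes are counted below, fell and rose mean called lower and called higher.

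Slc6a11 was at -0.20, -0.59 and -1.14 in the mutant brains and at 0.70, 0.46 and 0.20 in the wild-type brains, in the order of replicates 1 to 3. All mutant brains lay below all wild-type brains, with mutant replicate 3 far below the other mutants and wild-type replicate 3 closest to them. The means were -0.64 ± 0.47 in mutants and 0.45 ± 0.25 in wild types (SD, n = 3 each). The difference was -1.09 ± 0.22 (limma SE), 2.14-fold lower in the mutants. Only 5 of the 23410 rows had a larger fall. Single pairs of brains differed widely, from 0.39 between the closest mutant and wild type to 1.84 between the most distant.

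Slc6a13 was at -0.065, -0.46 and -0.35 in the mutant brains and at 0.22, 0.12 and 0.065 in the wild-type brains. The groups again did not overlap, but mutant replicate 1 sat 0.13 below the lowest wild type, while the other mutants were well apart. The mean was -0.29 ± 0.21 in mutants and 0.13 ± 0.076 in wild types (SD, n = 3 each). This gave a difference of -0.43 ± 0.098 (SE), 1.34-fold lower in the mutants. A larger fall was seen in 1.52% of the rows.

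Slc6a12 was at -0.14, -0.061 and -0.20 in the mutant brains and at 0.22, 0.061 and 0.086 in the wild-type brains. The groups did not overlap, and here mutant replicate 2 and wild-type replicate 2 were the closest, 0.12 apart. Means were -0.14 ± 0.072 in mutants and 0.12 ± 0.085 in wild types (SD, n = 3 each). The difference was -0.26 ± 0.060 (SE), 1.20-fold lower in the mutants, and 5.15% of rows had a larger fall.

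**Figure D1:**
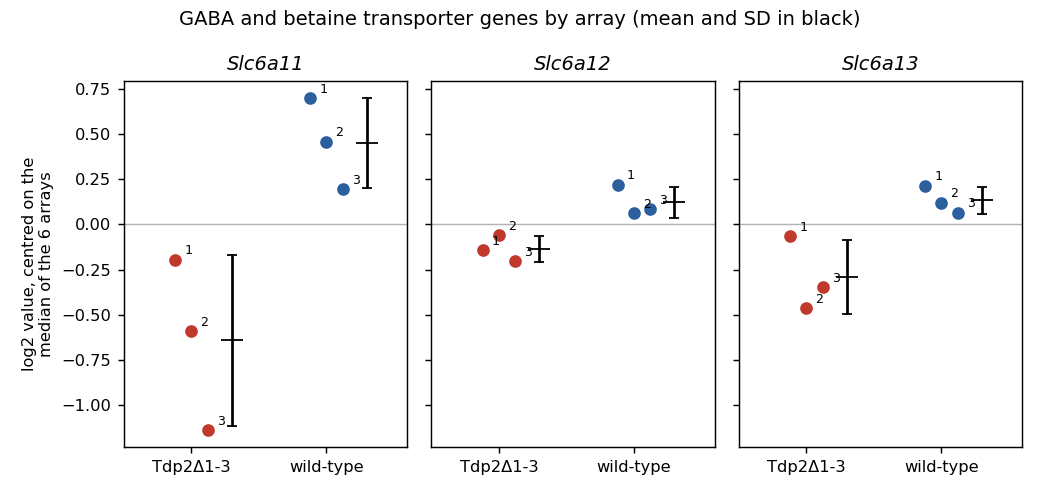
Centred log2 values (vertical axis) of Slc6a11, Slc6a12 and Slc6a13 in the 3 Tdp2Δ1-3 brains (red) and 3 wild-type brains (blue), numbered by replicate, with mean and SD in black. Every mutant value is below 0 and every wild-type value above it, and the spread of Slc6a11 among mutants (SD 0.47) is the widest of the 3 genes.

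For all 3 transporters, then, the highest mutant brain lay below the lowest wild-type brain, as in 12.6% of all rows, while 13.1% of rows had the groups apart with mutants higher. All 3 differences were below 0, as in 43.2% of rows. All 3 passed the call in the fit over all rows, in which 6.47% of rows were called, 4.13% lower and 2.34% higher. Nothing is read from these counts, or from the calls of the 3 genes in any fit, since the comparison itself chose the genes. The difference was largest for Slc6a11 and smallest for Slc6a12, and only Slc6a11 also passed a fold of 1.5, which 0.641% of rows did (0.453% lower). With 1 array left out in turn, Slc6a11 ranged from -1.32 (without mutant replicate 1) to -0.85 (without mutant replicate 3), and it missed the call without mutant replicate 2 or wild-type replicate 1 or 2. Slc6a13 ranged from -0.54 (without mutant replicate 1) to -0.34 (without mutant replicate 2), and of these 6 fits was called only in that without mutant replicate 1. Slc6a12 ranged from -0.30 to -0.21 and missed the call whichever array was left out. Slc6a12 and Slc6a13 also missed it when the rows naming no gene were tested too. After cyclic loess scaling of the centred values Slc6a11 was at -0.79, Slc6a12 at -0.27 and Slc6a13 at -0.20, so the order of the last pair turned, and Slc6a13 was not called.

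**Figure D2:**
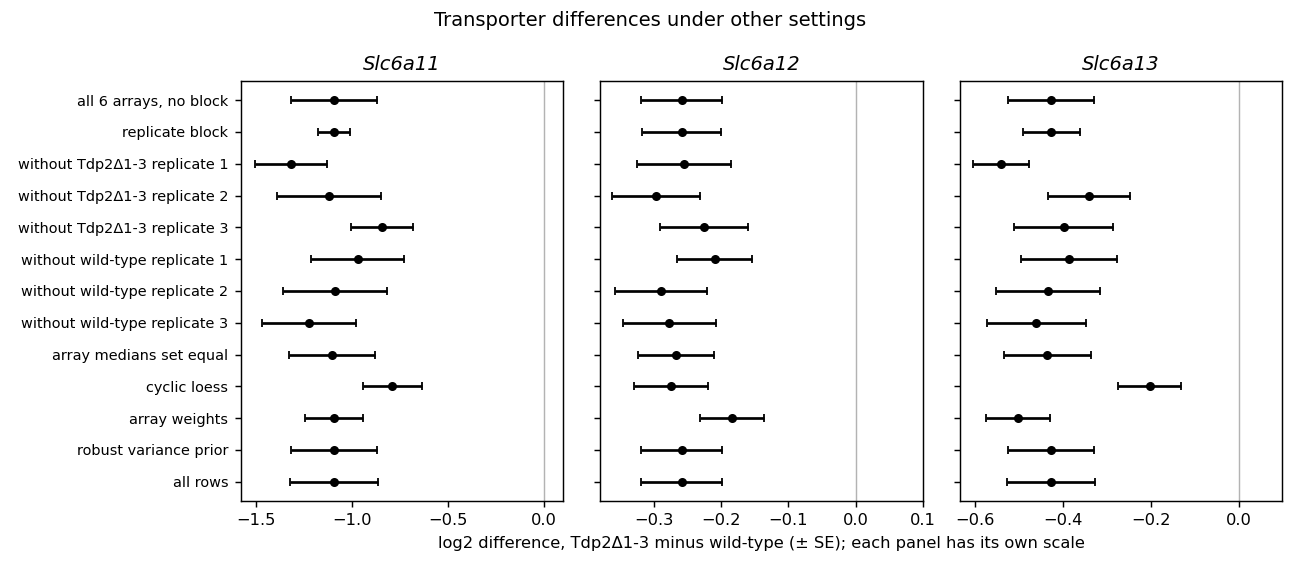
Difference of each transporter between Tdp2Δ1-3 and wild-type brains (log2, points, with limma SE as bars) with all 6 arrays and under each other setting, 1 setting per line and 1 horizontal scale per panel. Every estimate is below 0, and Slc6a13 lies between -0.54 without mutant replicate 1 and -0.20 after cyclic loess.

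Among the other carriers of the Slc6 family, 6 of 17 measured genes fell and 0 rose, beside the 4.13% of all rows called lower. The median difference was -0.17, beside 0.013 over all rows tested. Slc6a7, the brain proline transporter gene, fell by 0.69 ± 0.09 (SE, limma adjusted p = 0.0077), and Slc6a20a, which encodes a carrier of proline and other imino acids, fell by 0.59 ± 0.06 (adjusted p = 0.0045). Slc6a9, the glycine transporter gene of glia, fell by 0.64 ± 0.15 (adjusted p = 0.045). Slc6a15 and Slc6a17, genes of neuronal carriers of neutral amino acids, fell by 0.32 (adjusted p = 0.032) and 0.29 (0.037), and the dopamine transporter gene Slc6a3 by 0.17 (0.046). The taurine transporter gene Slc6a6 was at -0.18 (adjusted p = 0.13), and the creatine transporter gene Slc6a8 at -0.04 (0.78).

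Slc6a20a was the 1 gene of these 6 called with any array left out, and Slc6a7 missed only without mutant replicate 2 (adjusted p = 0.055). Slc6a3 missed whichever array was left out, Slc6a9 without any array but mutant replicate 1, and Slc6a15 and Slc6a17 without mutant replicate 2 or 3 or wild-type replicate 1 or 2. The family count was 1 without mutant replicate 2, 2 without mutant replicate 3, wild-type replicate 1 or wild-type replicate 2, and 3 when rows naming no gene were tested too, since Slc6a3 (adjusted p = 0.056), Slc6a9 (0.064) and Slc6a17 (0.052) then missed. Averaged over the 17 genes, the centred value ran from -0.24 to -0.012 in mutants and from 0.014 to 0.19 in wild types.

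**Figure D3:**
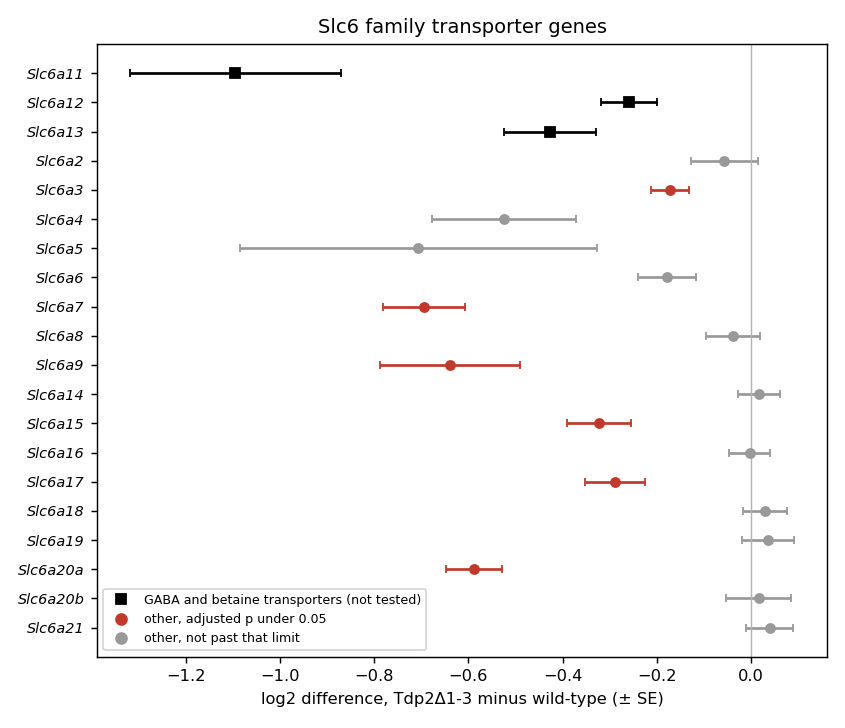
Log2 difference between Tdp2Δ1-3 and wild-type brains (horizontal axis, points, with limma SE as bars) for the 3 GABA and betaine transporter genes (black squares) and 17 other Slc6 genes (circles, red where called). Slc6a11 lies furthest left at -1.09, and carriers such as Slc6a14, Slc6a16 and Slc6a18 lie near 0.

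The next genes act before and after GABA uptake. Of 12 measured genes of GABA synthesis, vesicle loading and breakdown, 1 fell and 0 rose (background 4.13% lower), with a median of -0.20. The gene that fell was Gad1, for a GABA-synthesizing enzyme, by 0.20 (limma adjusted p = 0.037), and it missed the call with any 1 array left out. The count was 3 without mutant replicate 1. Gad2, for the second such enzyme, was at 0.03 (adjusted p = 0.79), and Slc32a1, the vesicular GABA transporter gene, at -0.21 (0.10). The breakdown genes Abat, the GABA transaminase gene, and Aldh5a1, for the dehydrogenase that follows it, were at -0.20 (adjusted p = 0.15) and -0.42 (0.062). Slc38a3, for a glutamine carrier of astrocytes, was at -0.25 (adjusted p = 0.052). The groups did not overlap for 8 of the 12 genes, with mutants lower, against 12.6% of all rows.

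The receptors that GABA acts on were measured next. Of 16 GABA-A receptor subunit genes, 7 fell and 0 rose, beside 4.13% of all rows called lower. The median was -0.13. Gabra5, Gabrg1, Gabrg3 and Gabrb1 fell by 0.79, 0.78, 0.76 and 0.59 (limma adjusted p between 0.0012 and 0.0080), and these 4 were called with any 1 array left out. Gabra3 fell by 0.43, Gabra4 by 0.26 and Gabrb2 by 0.23 (adjusted p = 0.014, 0.034 and 0.044). Of these, Gabra3 missed without mutant replicate 2 (adjusted p = 0.058) or wild-type replicate 2 (0.069), Gabrb2 whichever array was left out and Gabra4 without any array but mutant replicate 1. The subunit count was 4 without mutant replicate 2 or wild-type replicate 2. Gabrb2 also missed with all rows tested (adjusted p = 0.059), and its 3 rows were at -0.23, -0.32 and -0.25. The 9 subunit genes that did not pass had differences between -0.15 and 0.14, with Gabra2 lowest, Gabrq at -0.10 and Gabrr2, for a rho subunit, highest.

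Of 9 genes for the GABA-B receptor, receptor anchoring and neuronal chloride, 2 fell and 0 rose, beside 4.13% of all rows called lower. The median was -0.28. Gabbr2, a GABA-B receptor subunit gene, fell by 0.77 ± 0.12 (SE, limma adjusted p = 0.015). Slc12a5, which encodes the chloride extruder KCC2 of maturing neurons, fell by 0.63 ± 0.10 (adjusted p = 0.014), while the chloride importer gene Slc12a2 was at -0.05 (0.70). Both falls missed the call without mutant replicate 2 (adjusted p = 0.082 for Gabbr2 and 0.074 for Slc12a5) or wild-type replicate 2 (0.069 and 0.063), which left 0 called lower, while 5 were called without mutant replicate 1.

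**Figure D4:**
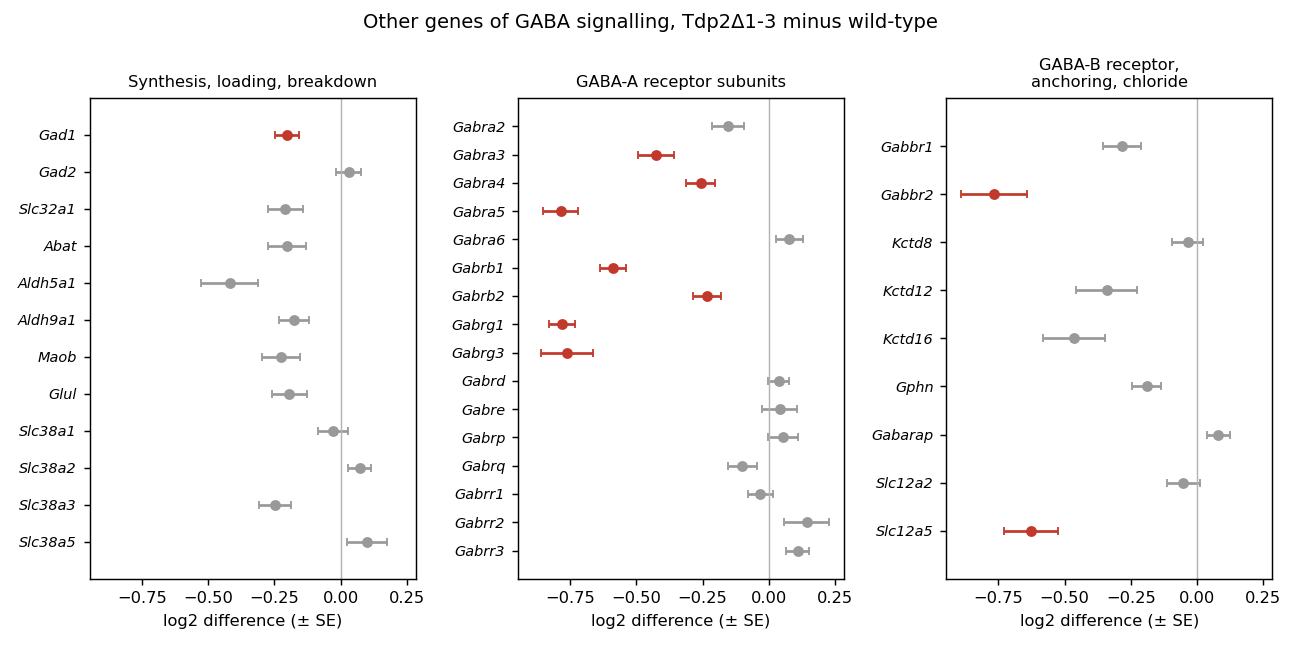
Log2 difference between Tdp2Δ1-3 and wild-type brains (horizontal axis, points, with limma SE as bars) for measured genes of GABA synthesis, loading and breakdown, of GABA-A receptor subunits and of the GABA-B receptor, anchoring and chloride group, red where called. The largest falls are in the receptor panels, from Gabra5 at -0.79 to Gabbr2 at -0.77, and the lowest value of the synthesis panel is Aldh5a1 at -0.42.

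The glutamate uptake list held 6 genes of the Slc1 family, not all of them for glutamate carriers. Of these, 2 fell and 0 rose, beside 4.13% of all rows called lower. Slc1a1, a neuronal glutamate carrier gene, fell by 0.50 (limma adjusted p = 0.0082), and Slc1a4, for a neutral amino acid carrier, by 0.32 (0.014). Slc1a1 missed the call without mutant replicate 2 (adjusted p = 0.052), and Slc1a4 without mutant replicate 2 (0.068) or wild-type replicate 2 (0.058), so the count was 0 without that mutant and 1 without that wild type. The astrocyte carrier genes Slc1a2 and Slc1a3 were at 0.03 (adjusted p = 0.79) and -0.26 (0.13), and the list's median was -0.24. Of 9 betaine and osmolyte genes, 0 were called by limma, beside 6.47% of all rows. In the row used for each gene, 1, Slc6a6, passed 0.05 before adjustment, as 21.8% of all rows did. With array weights 2 were called lower. Their median was 0.034, and the inositol carrier gene Slc5a3, next in p, was at -0.12 (adjusted p = 0.31). Among the GABA, glutamate, osmolyte and other Slc6 lists, in none of which a gene was called higher, Gabrr3 alone was higher at 0.05 before adjustment.

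Markers of cells that could hold these carriers were set beside them. Of 16 astrocyte markers, 7 fell and 1 rose, beside 4.13% of all rows called lower and 2.34% called higher. The median was -0.27. Slc4a4, a bicarbonate cotransporter gene, fell by 0.80, Sparcl1 by 0.65, Hepacam by 0.64, Bcan by 0.59, the water channel gene Aqp4 by 0.51 and the connexin gene Gjb6 by 0.32 (limma adjusted p between 0.011 and 0.0498). Gjb6 was at -0.077 after cyclic loess (adjusted p = 0.37), and it missed the call with a robust prior (0.051), with all rows tested (0.068) and without any array but mutant replicate 1. Fgfr3, a fibroblast growth factor receptor gene, rose by 0.26 (adjusted p = 0.038), a call that held only without wild-type replicate 1 (adjusted p = 0.045) among the 6 fits with 1 array left out, and not with all rows tested (0.051). Gfap, the intermediate filament gene of mature astrocytes, was at 0.07 (adjusted p = 0.67). Averaged over the list, the centred value lay between -0.27 and -0.039 in mutants and between 0.032 and 0.23 in wild types. The astrocyte count was 0 without mutant replicate 2 or wild-type replicate 2, 2 without mutant replicate 3 or wild-type replicate 1, and 11 with array weights.

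The 16 meningeal and fibroblast markers had a median of -0.17. Among them 3 fell and 0 rose (0 higher before adjustment too), beside 4.13% of all rows called lower. They were Ptgds, a prostaglandin D synthase gene, which fell by 1.19, and the matrix proteoglycan genes Ogn and Fmod, which fell by 0.54 and 0.48 (limma adjusted p = 0.0037, 0.0090 and 0.018). The collagen gene Col1a2 was at -0.29 (adjusted p = 0.21). The list averaged between -0.22 and -0.01 in mutants and between 0.023 and 0.18 in wild types. Only Ptgds was called lower without mutant replicate 2, where Ogn was at -0.49 (adjusted p = 0.056) and Fmod at -0.41 (0.077). Without mutant replicate 1, 5 genes were called lower. Of 11 endothelial and pericyte markers, 3 fell, beside the same 4.13% of all rows, with a median of -0.12. Slco1c1, Anpep and Cldn5 fell by 0.55, 0.40 and 0.35 (adjusted p = 0.0022, 0.032 and 0.024). That list averaged between -0.14 and -0.019 in mutants and between 0.046 and 0.093 in wild types. Only 1 of its genes was called lower without mutant replicate 2 or 3 or wild-type replicate 1 or 2. The part of these cell types in the transporter values was not tested.

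The next list held markers used for neurons that release GABA. Of these, Gad1, Gad2 and Slc32a1 were also in the GABA synthesis list, so the lists are not separate readings. Of 12 GABAergic neuron markers, 4 fell and 0 rose, beside 4.13% of all rows called lower. Before adjustment 1, Dlx2, was higher, and the median was -0.15. Npy fell by 0.58, Calb2 by 0.58 and Calb1 by 0.34 (limma adjusted p = 0.0085, 0.0048 and 0.011), beside Gad1. The count was 2 without mutant replicate 2 or wild-type replicate 2. Differences were below 0 for 8 of the 12 genes. The rest, Gad2, Dlx1, Dlx2 and Dlx6, were at 0.03, 0.13, 0.13 and 0.14 (adjusted p = 0.79, 0.28, 0.21 and 0.32). The list averaged between -0.095 and -0.065 in mutants and between 0.039 and 0.11 in wild types. Of 8 general neuron markers, 2 fell, beside the same 4.13% of all rows, with a median of -0.32. Snap25 and Syt1, genes of vesicle release, fell by 0.42 and 0.38 (adjusted p = 0.038 and 0.018). Neither was called without mutant replicate 2 or wild-type replicate 1 or 2, and 6 were called without mutant replicate 1. Snap25 also missed with all rows tested (adjusted p = 0.055). That list averaged between -0.35 and -0.0053 in mutants and between 0.022 and 0.16 in wild types.

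**Figure D5:**
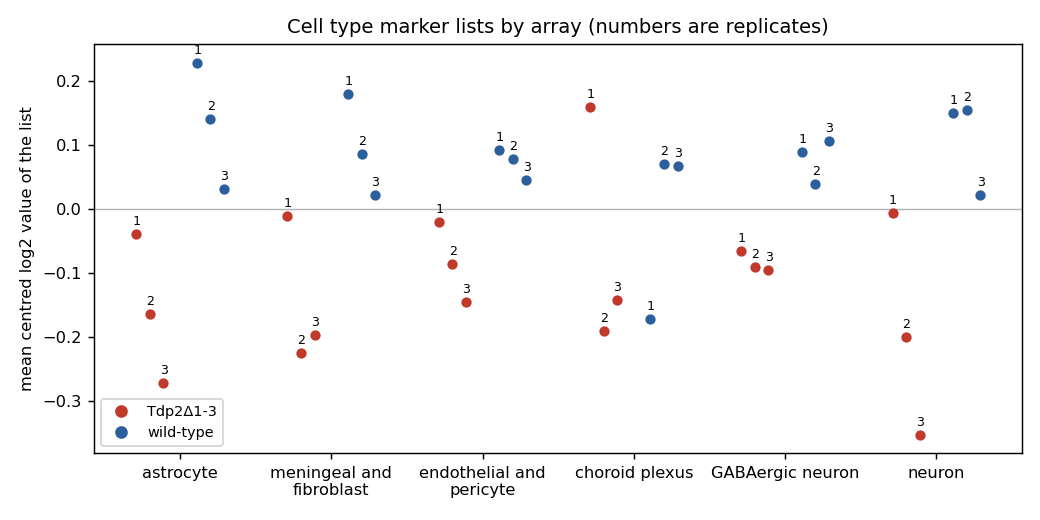
Mean centred log2 value of each cell type marker list (vertical axis) in each Tdp2Δ1-3 array (red) and wild-type array (blue), numbered by replicate. Every mutant array lies below every wild-type array in 5 of the lists, and in choroid plexus mutant replicate 1 is highest at 0.16 and wild-type replicate 1 is at -0.17.

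On chromosome 6 the neighbouring genes had differences in both directions. Next to Slc6a11, Atp2b2, a plasma membrane calcium pump gene, fell by 0.42 ± 0.08 (SE, limma adjusted p = 0.028). This call was lost without mutant replicate 2 or 3 or wild-type replicate 1 or 2. Sec13 and the histamine receptor gene Hrh1, also within 2 genes, were at 0.19 (adjusted p = 0.069) and 0.18 (0.067). Around the pair of Slc6a13 and Slc6a12, Usp18 was at -0.26 (adjusted p = 0.067), Iqsec3 at -0.35 (0.11), A2m at -0.13 (0.46) and Tuba8 at 0.02 (0.93). Without mutant replicate 1, Sec13 (adjusted p = 0.032), Iqsec3 (0.023) and A2m (0.038) passed the call, Sec13 as higher and the other pair as lower.

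The genes with the profile most like Slc6a11 over the 6 arrays, by root-mean-square difference of centred log2 values, were Vsnl1 (0.18), Mal2 (0.18), Ptgds (0.19), Grm3 (0.19) and Kcnk9 (0.20). Vsnl1 encodes a neuronal calcium sensor, Grm3 a metabotropic glutamate receptor and Kcnk9 a potassium leak channel. The other transporters were further away, Slc6a13 at 0.41 and Slc6a12 at 0.51, a distance that also grows where a gene's differences are of another size. For Slc6a13 the nearest were S100a10 (0.056), Rap1gap (0.058), Gng7 (0.058), Lrp11 (0.060) and Pdgfa (0.061), and Slc6a12 was 0.18 away. Gng7 encodes a G protein subunit and Pdgfa a growth factor. For Slc6a12, whose values spanned 0.42, under the 1.5-fold range set for this measure, no nearest genes were sought. These likenesses were picked as the smallest of 21786 rows over 6 arrays and carry no test.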

How the data were processed

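Whole-brain RNA from 3 Tdp2Δ1-3 and 3 wild-type embryos was read on Affymetrix arrays. The series text gives Robust Multi-Array Average as the authors' normalization. Affymetrix Expression Console is the tool in the submitters' processing notes. The deposited log2 values were centred per row on the median of the 6 arrays (to within 5e-07), a step not described in the sources used here, so no filter on dim probes was possible. The log base follows from that method and is not written in the table.

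Of 28856 rows, 21789 named 1 gene in the platform annotation, 1621 several and 5446 none. Symbols were updated through the RefSeq table (GRCm38.p6) by gene identifier, with 21698 of these single-gene rows matched. Genes with several rows used the row with most accessions. The genotype test was that of limma 3.58.1 under R 4.3.3 (two-sided moderated test, Benjamini-Hochberg over the 23410 rows naming a gene). The limma fit was tested on simulated rows with independent noise, which lack any structure that real arrays share. Figures used matplotlib 3.10.9.

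The transporters and gene lists were chosen with earlier results of these data known. Named were the called genes of each list (at most 6 per marker list), 2 of smallest p where none was called, the 2 chromosome neighbours on each side, the 5 genes of nearest profile, and Tdp2, Aqp4, Gfap, Ogn, Col1a2 and Ttr. Genes named outside this rule were picked after their values were seen. Other settings were a block for the replicate number, 1 array left out in turn, equal array medians, cyclic loess, array weights, a robust prior, the mean of a gene's rows, all rows and a 1.5-fold limit.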

Additional observations from a re-analysis of the deposited data

How the results depend on the processing

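Slc6a11, Slc6a12 and Slc6a13 stayed below 0 in all 12 other settings, within -1.32 to -0.79, -0.30 to -0.18 and -0.54 to -0.20. Slc6a13 was -0.20 after cyclic loess, a shift larger than its spread between replicates, and the cause was not tested. The rows called numbered 2400 with the replicate block (904 higher, 1496 lower), 5425 with array weights (2644 and 2781) and 150 at 1.5-fold (44 and 106), against 1515. With 1 array left out they ran from 145 to 2501 (32 to 862 higher, 113 to 1639 lower). With the replicate block, genes called lower numbered 5 in GABA synthesis, 5 in the GABA-B group, 11 astrocyte, 6 meningeal and 5 neuron genes, and 1 choroid plexus gene was higher. With array weights, 8 GABA synthesis, 6 GABA-B group, 4 glutamate uptake, 2 osmolyte, 11 astrocyte, 8 meningeal, 5 endothelial, 4 choroid plexus and 6 neuron genes were lower. In the same fit 1 GABA synthesis, 1 GABA-A, 1 choroid plexus and 3 GABAergic genes were higher, and the GABA-A median was -0.086. With equal medians and with cyclic loess 2 GABA synthesis genes were lower. Cyclic loess also gave 1 higher choroid plexus gene and a neuron median of -0.15. With all rows tested 3 other Slc6 genes and 1 neuron gene were lower, and 0 astrocyte genes were higher (1 in the 23410 named rows).

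Leaving out 1 array gave, for genes called lower, 1 to 6 of the Slc6 family, 0 to 3 of GABA synthesis, 4 to 6 GABA-A, 0 to 5 of the GABA-B group, 0 to 3 of glutamate uptake, 0 to 9 astrocyte, 1 to 5 meningeal, 1 to 3 endothelial, 0 to 2 choroid plexus, 2 to 5 GABAergic and 0 to 6 neuron genes. Genes called higher ran from 0 to 1 in the astrocyte, choroid plexus and GABAergic lists. The GABA-A median ran from -0.16 to -0.099 and the osmolyte median from -0.0076 to 0.061. Of 40 other named genes called with all arrays, 9 were called with any 1 left out. Tuba8 (0.015) ran from -0.028 to 0.077 with 1 array left out, below 0 at -0.014 without mutant replicate 1, at -0.0025 when wild-type replicate 2 was dropped and at -0.028 when replicate 3 of that genotype was, and it was -0.0014 after cyclic loess. Same-numbered mutant and wild-type arrays correlated at 0.21, 0.047 and 0.20 in their deviations from the group means, and different-numbered ones between -0.22 and 0.057. The highest of the latter was mutant replicate 2 with wild-type replicate 3, close to its same-numbered value. No label says that the numbers mark pairs, so the block was kept as an alternative only. With the block the SE was 0.083 for Slc6a11, 0.058 for Slc6a12 and 0.065 for Slc6a13, against 0.22, 0.060 and 0.098 without. With the replicate block Slc6a3 missed the call (adjusted p = 0.062), and Otx2, Col1a2, Sec13, Usp18 and Iqsec3 passed it. So did Kcnk9, S100a10, Rap1gap, Lrp11 and Pdgfa, from the nearest profiles.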

Other observations

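Slc6 carriers of hindbrain transmitter systems were picked here after their values were seen. Slc6a5, the glycine transporter gene of inhibitory neurons of the hindbrain and spinal cord, was at 0.38, -0.48 and -0.81 in the mutant brains and at 0.88, 0.71 and -0.38 in the wild-type brains. The groups overlapped, with mutant replicate 1 above wild-type replicate 3, and the difference was -0.71 ± 0.38 (SE, n = 3 each, limma adjusted p = 0.34). Slc6a4, the serotonin transporter gene, was at -0.10, -0.18 and -0.71 in mutants and at 0.34, 0.15 and 0.10 in wild types, a difference of -0.52 ± 0.15 (adjusted p = 0.085) without overlap.

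Of 8 choroid plexus markers, 0 were called by limma, beside 6.47% of all rows. Before adjustment 1, Otx2, passed 0.05, as 21.8% of all rows did. The list averaged 0.16, -0.19 and -0.14 in mutants and -0.17, 0.070 and 0.067 in wild types, so the groups overlapped, and its part in the transporter values was not tested. Ttr, the transthyretin gene, was at 0.10, -0.23 and -0.22 in mutants and at -0.10, 0.10 and 0.17 in wild types (adjusted p = 0.40). Otx2, a homeobox gene also used in the midbrain, was at 0.16, 0.19 and 0.31 in mutants and at -0.89, -0.20 and -0.16 in wild types (difference 0.64, adjusted p = 0.074). It was called without wild-type replicate 1 (adjusted p = 0.025). Sostdc1 was at -0.36 (adjusted p = 0.29), and was called without mutant replicate 1 (0.024). The list median was -0.12.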
